A study of Mus musculus with 132 samples.

Results

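Open chromatin is read by ATAC-seq, in which a transposase inserts adapters where DNA is not covered by nucleosomes, and a peak is a stretch where such insertions pile up. The sites described here are the 11424 ATAC-seq peaks of mouse Flk1+ mesoderm that shared no base with a peak of CD41+ hematopoietic progenitor cells (HPCs) or with a CTCF peak of 416B cells, a mouse myeloid progenitor line, and whose midpoint lay within 5 kb of an annotated gene start. They were taken from 76766 mesoderm peaks, of which 23468 lay near a gene start. A further 1954 peaks met the other conditions but carried a CTCF peak and were left out. The sites lay at 9880 of 24961 gene starts, or 39.6% of them, and 1942 sites were within reach of more than 1 start. No HPC peak lay within 500 bp of 8976 of the sites, so the rest sat beside a peak of the HPC list. Of the 9880 genes, 4496 also had an HPC peak within 5 kb of the start.

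The cells were mouse embryonic stem cells (mESCs) of the E14-TG2a line differentiated in culture with BMP4, then bFGF and Activin A, then SCF and VEGF. Flk1+ mesoderm was sorted at day 4, and the HPCs, CD41+ and CD45-, at day 7. The HPC and mesoderm peak lists came from 2 and 4 wild-type libraries, each merged before peak calling, with the 2 HPC libraries being technical replicates of 1 experiment and the mesoderm libraries coming from 2 experiments, so peaks carry no replicate error. The HPC list held 29037 peaks, and a site closed in HPCs cannot be told apart from one not called at the depth of that list. Accessibility in undifferentiated cells was not used, so a site may already have been open in mESCs. The cells used for ATAC-seq are described in the methods as carrying a Venus reporter at Runx1 and an enhancer-mCherry transgene. Poly(A)-minus RNA-seq, which keeps unprocessed transcripts and reads both exons and introns, covered wild-type mesoderm (3 libraries, from 3 clones), wild-type HPCs (4 libraries, of the same 3 clones) and wild-type undifferentiated mESCs (2 technical replicates of 1 culture, depleted of ribosomal RNA by a step not named for the other libraries). It also covered clones in which CRISPR/Cas9 removed the CTCF site beside the distal Runx1 promoter (P1-CTCF-KO, 3 clones, with 3 mesoderm and 3 HPC libraries) or beside the proximal one (P2-CTCF-KO, 3 clones, with 3 mesoderm and 5 HPC libraries). Libraries of 1 clone share a cell line and are not separate lines.

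Library totals ran from 7805102 to 24406998 counts, and 68.1% to 91.0% of them fell on ribosomal RNA or on entries with several loci, which left 878966 to 7748566 counts for all other genes. Levels below are CPM, the count scaled to the size of the whole library after TMM normalization, ribosomal reads included, and are therefore low. The TMM factors of the undifferentiated libraries were 3.667 and 5.59 against 0.282 to 0.885 for the other wild-type libraries, and mesoderm clone C6.1 had the lowest. Mesoderm markers T, Mixl1, Eomes, Mesp1 and Kdr summed to 27.3 to 53.9 CPM in mesoderm and 3.72 to 15 CPM in HPCs, where the first 4 of these had no count in any wild-type library. Itga2b, Gata1, Gfi1b and Runx1 summed to 142 to 240 CPM in HPCs and 6.9 to 22.8 CPM in mesoderm. The endothelial markers Cdh5, Pecam1 and Tek summed to 1.8 to 79.8 CPM in the 3 mesoderm libraries, with clone B9.3 the highest for Cdh5, and 12.4 to 20.4 CPM in HPCs. Of the neural markers, Sox1, Pax6 and Tubb3, the summed level was at most 0.235 CPM in mesoderm. In bulk samples fewer cells of a type and less RNA per cell cannot be told apart.

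Mesoderm forms when cells leave the primitive streak under BMP, Nodal, Wnt and FGF signals. Flk1, the protein of Kdr, is the VEGF receptor that marks the mesoderm from which endothelium and blood arise. As blood progenitors emerge from hemogenic endothelium, streak and adhesion programs are switched off and Runx1, Gfi1b and Tal1 drive the blood program, with CD41 (Itga2b) as an early surface marker. Promoters of many broadly used genes are rich in CpG and stay open, whereas lineage genes often have CpG-poor elements that open only at one stage.

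The sites that carry the comparisons by gene group are shown for 8 genes, the 2 of each of 4 groups (streak, cardiac, endothelial, blood) that were called in wild-type cells and had a site of at most 300 bp nearest to the start, Gata6 and other genes of its chromosome left aside, on the plus strand of mm9. Capitals mark letters of the motifs searched, on either strand, and each bracket gives the distance of the midpoint from the start, negative upstream. The letters searched were AGATAA for GATA factors, AGGTGT for T-box factors, CAGATG for E-boxes of the HAND and MESP type and CAGCTG for those of the TAL1 type, CATTCC for TEAD, TAATTA for homeodomain, TGTTTA for FOX, ACAAAG for SOX, CTTTGA for TCF/LEF, CCGGAA for ETS, TGTGGT for RUNX, TGANTCA for AP-1, GGGCGG for SP/KLF, CCAAT for the box of that name, CACGTG for MYC-type E-boxes and TAATCC for OTX and GSC.
Cdx2 (chr5:148118736-148118951, -18.5 bp, untranslated exon): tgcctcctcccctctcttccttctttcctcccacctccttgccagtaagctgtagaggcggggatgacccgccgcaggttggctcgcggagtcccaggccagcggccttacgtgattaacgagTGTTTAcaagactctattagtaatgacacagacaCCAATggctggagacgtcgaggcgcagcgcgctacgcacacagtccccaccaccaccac
Hand1 (chr11:57645499-57645762, 18.5 bp, untranslated exon): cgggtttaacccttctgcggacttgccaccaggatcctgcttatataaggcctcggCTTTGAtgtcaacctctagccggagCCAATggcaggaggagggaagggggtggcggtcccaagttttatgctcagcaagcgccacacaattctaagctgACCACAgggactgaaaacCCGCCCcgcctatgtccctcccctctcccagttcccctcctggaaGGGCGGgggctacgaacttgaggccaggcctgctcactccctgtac
Tnnt2 (chr1:137732653-137732716, -225.5 bp, intergenic): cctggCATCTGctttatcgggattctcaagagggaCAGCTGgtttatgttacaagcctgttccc
Gata4 (chr14:63864797-63864980, -780.5 bp, intron): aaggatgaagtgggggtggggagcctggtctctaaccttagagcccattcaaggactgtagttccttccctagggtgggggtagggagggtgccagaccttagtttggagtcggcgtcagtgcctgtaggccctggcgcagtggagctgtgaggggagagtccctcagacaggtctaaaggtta
Notch1 (chr2:26359288-26359379, 8.5 bp, untranslated exon): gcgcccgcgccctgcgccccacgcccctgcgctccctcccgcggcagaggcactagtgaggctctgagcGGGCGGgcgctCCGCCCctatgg
Nrp2 (chr1:62749844-62749980, 22 bp, untranslated exon): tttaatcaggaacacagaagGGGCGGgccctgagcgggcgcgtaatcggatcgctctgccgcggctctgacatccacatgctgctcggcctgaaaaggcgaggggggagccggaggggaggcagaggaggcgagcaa
Coro1a (chr7:133848248-133848364, 24 bp, untranslated exon): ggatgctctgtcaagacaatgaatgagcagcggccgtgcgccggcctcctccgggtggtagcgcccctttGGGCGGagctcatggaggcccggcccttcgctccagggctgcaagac
Gp1ba (chr11:70452456-70452693, -48.5 bp, intergenic): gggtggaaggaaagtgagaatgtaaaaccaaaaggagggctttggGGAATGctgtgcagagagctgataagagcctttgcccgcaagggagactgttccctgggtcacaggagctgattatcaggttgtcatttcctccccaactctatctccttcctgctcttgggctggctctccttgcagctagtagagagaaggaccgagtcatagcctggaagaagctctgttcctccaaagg

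These 8 sites differed widely in composition. The Notch1 site held 79.3% G and C with 12 CpG in 92 bp, whereas the Tnnt2 site held 50% with 1 CpG in 64 bp and paired the HAND/MESP-type E-box CAGATG with the TAL1-type E-box CAGCTG. The Gata4 site held none of the 16 motifs.

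Across all members, the sites sat farther from the start and more often inside the gene than sites open at both stages. Of the 11424 sites, 56.7% lay within 500 bp of the start, 80.9% within 2 kb, and the median distance was 369.5 bp. Of the 8512 sites near starts that were open at both stages without a CTCF peak, 82.7% lay within 500 bp, with a median of 98 bp. A start lay inside the peak for 19.2% of the mesoderm-only sites and 57.6% of the sites open at both stages, and 54.7% against 35.5% had their midpoint downstream of the start. The 1287 HPC-only sites were farther still, with 38.3% within 500 bp. At the edge of the window, 673 sites lay 4 to 5 kb from a start and 716 mesoderm-only peaks at 5 to 6 kb were left out. The midpoints fell in introns for 31.3% of the sites, in untranslated exons for 20.0%, in coding exons for 7.4%, in exons of noncoding transcripts for 3.8% and in intergenic DNA for 37.5%. Sites and starts came from the whole peak lists, so these are descriptions with no test.

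**Figure D1:**
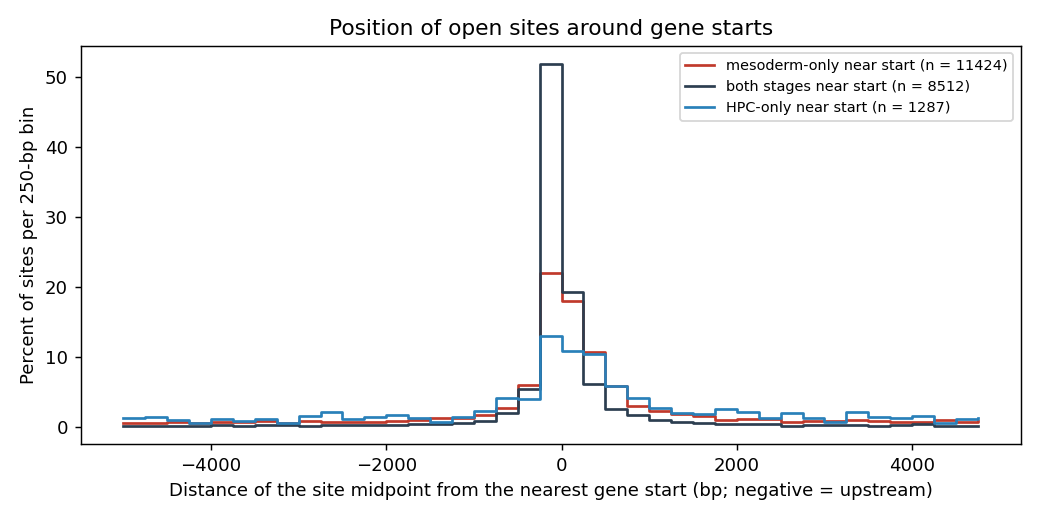
Percent of sites in 250-bp bins (vertical axis) by distance in bp of the midpoint from the nearest gene start (horizontal axis, negative upstream), for mesoderm-only sites (red), sites open at both stages (dark) and HPC-only sites (blue). The bin just upstream of the start held 51.8% of the sites open at both stages and 22% of the mesoderm-only sites.

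The mesoderm-only sites were narrow, with a median width of 105 bp against 228 bp for the sites open at both stages. They were rich in G and C (median 61.1%, against 63.1% for sites open at both stages and 51.6% for the 36422 mesoderm-only peaks away from starts). Fewer of them than of the sites open at both stages had CpG at the density of a CpG island. The ratio of observed to expected CpG was over 0.6 in 47.5% of the sites, against 73.8% of sites open at both stages and 5.1% of distal mesoderm-only peaks. In equal windows of 200 bp it was over 0.6 in 49.1% of the members and 49.7% of all gene starts. The median GC of these windows was 61.0% and 59.0%. The share of deposited peaks over 0.6 differed by position in both classes. Among members it was 65.6% within 500 bp of the start and 23.8% beyond it. Among sites open at both stages it was 80.2% and 43.2%.

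Motif letters in the members also differed by distance from the start. GGGCGG, read by SP and KLF factors, was in 36.9% of the sites within 500 bp and in 15.4% of those beyond it. Over all distances it was in 59.7% of sites open at both stages. AGATAA, read by GATA factors, was in 2.5% of the near sites and 11% of the far ones, and in 17.6% of the distal mesoderm-only peaks. CATTCC, read by TEAD factors, was in 5.7% and 11.4%. AGGTGT, read by T-box factors such as T and Eomes, was in 3.8% and 5.2%, and CCGGAA, read by ETS factors, in 12.1% and 4.5%. RUNX letters TGTGGT were in 6.9% of the members and 15.0% of the HPC-only sites. Wider peaks hold more letters by length alone. In equal windows of 200 bp around the midpoint, GGGCGG was in 41.1% of the members and 59.3% of the sites open at both stages, AGATAA in 8.6% and 3.8%, and CCAAT in 20.0% and 40.0%. In these windows the members held AGGTGT in 7.4%, CATTCC in 11.9%, CCGGAA in 12.2% and TGTGGT in 10.4%. The same windows at all gene starts held GGGCGG in 39.6%, AGATAA in 5.3%, AGGTGT in 8.3%, CATTCC in 7.9%, CCGGAA in 14.6%, TGTGGT in 9.8% and CCAAT in 27.5%. A window may hold several of these motifs and is counted for each.

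The share of genes with a site differed between the gene lists. A site was present at 42 of 49 adhesion and extracellular matrix genes (85.7%), at 23 of 30 FGF and VEGF genes (76.7%), at 32 of 46 primitive streak and early mesoderm genes (69.6%), at 38 of 57 Wnt genes (66.7%) and at 30 of 47 BMP, Nodal and TGF-beta genes (63.8%). It was present at 14 of 18 neural and ectoderm genes (77.8%) and 25 of 40 endothelial genes (62.5%). The shares of cardiac (51.6%), Hox and TALE (43.8%), pluripotency (41.4%) and blood genes (38.1%) were nearer to the 39.6% of all starts, and 4 of 18 endoderm genes (22.2%) had a site. No test was run on these shares.

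Most starts with a site had just 1, at 6863 genes, and 10 genes reached the highest number, 5. They were Aplnr, the apelin receptor of angioblasts, Col1a2 (a collagen I chain), Flnc (filamin C), Fat3 (an atypical cadherin), Foxp2 (a forkhead factor), Snap91 (a clathrin adaptor), the noncoding RNA Platr22 and the histone genes H2ac11, H2bc11 and H4c9. Histone genes are clustered and short, so their windows overlap and the same sites count for several. Aplnr held sites at -4877, -4482.5, -84, 3338.5 and 4609 bp from its start, with no HPC peak within 5 kb.

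The first question for expression was how the genes with a site behaved on the step from mesoderm to HPCs in wild-type cells. A gene was called when its adjusted p in edgeR's quasi-likelihood test was under 0.05 and its log2 fold change exceeded 1 in size. Of the 9880 genes 6412 passed the filter on low counts, and of these 1039 were lower in HPCs (16.2%) and 678 higher (10.6%). Over all 12899 genes tested, 12.5% were lower and 10.8% higher. The median log2 fold change was -0.11 for genes with a site and -0.01 for all genes. Genes with a site therefore stood above the background among the falling genes and at it among the rising ones. A gene that passes the filter only through its mesoderm level had to be lower, so these shares describe the genes that passed.

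The shares moved with the peaks at the start. Of the 2824 tested genes with a site and no HPC peak within 5 kb, 21.2% were lower and 8.96% higher, with a median log2 fold change of -0.35. Where an HPC peak lay at the start as well (3588 genes), 12.3% were lower and 11.8% higher, with a median of 0.0. Genes with an HPC peak and no site (5024) had 7.88% lower and 11% higher. Genes with neither a site nor an HPC peak (1344) had 12.9% lower and 11.9% higher, with a median of 0.0. The filter kept 52.5% of the genes with a site and no HPC peak and 79.8% of those with both. It kept 77.1% of those with an HPC peak alone and 15.7% of those with neither.

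The number of sites moved with the share that fell. In wild-type cells 8.95% of genes with no site were lower in HPCs, 13.7% with 1 site, 19.4% with 2, 26.8% with 3 and 36.0% of the 75 tested genes with 4 or 5. The share that was higher stayed between 10% and 11.2% from 0 to 3 sites and was 2.67% at 4 or 5. The order was also there within genes that had an HPC peak (10.6%, 15.7% and 24.0% lower for 1, 2 and 3 to 5 sites) and within genes that had none (18.8%, 22.7% and 31.0%). Without mesoderm clone C6.1 the shares lower were 8.3%, 12.7%, 17.8%, 23.9% and 33.8%. The filter kept 42.2%, 63.1%, 67.9%, 72.2% and 75.8% of the genes with 0, 1, 2, 3 and 4 or 5 sites. The density of other peaks around a gene was not held constant. Genes with a site wider than the median of the mesoderm list, 114 bp, had 18.4% lower and the other genes with a site 13.5%. In both deletion genotypes the order by number of sites held with an HPC peak, and in P1-CTCF-KO also without one. In P2-CTCF-KO genes without an HPC peak it did not, with 14.9%, 18.9% and 18.7% lower for 1, 2 and 3 to 5 sites.

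**Figure D2:**
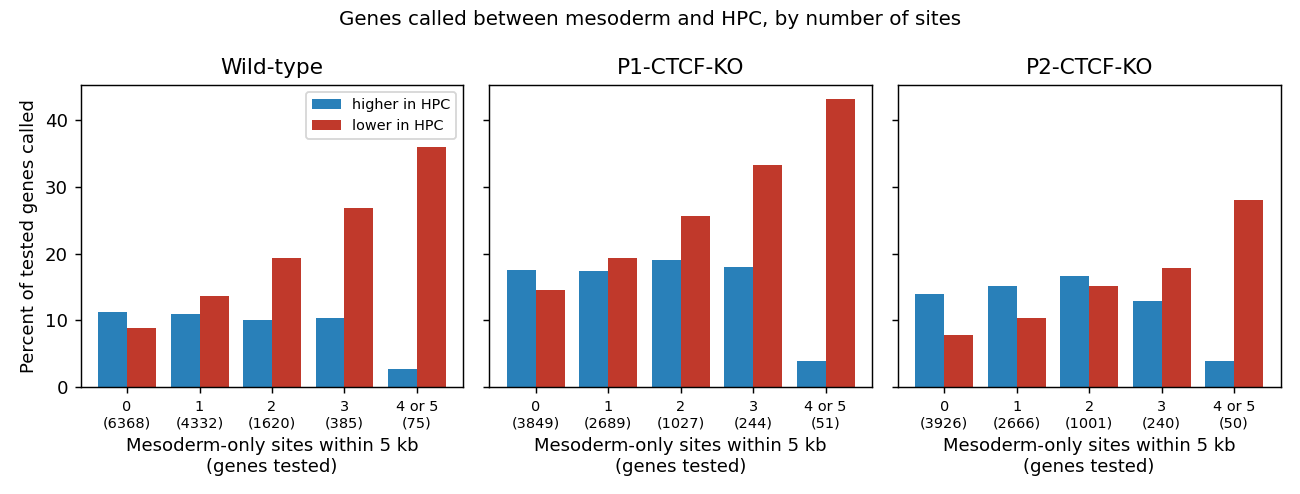
Percent of tested genes (vertical axis) called higher (blue) or lower (red) in HPCs than in mesoderm, by the number of mesoderm-only sites within 5 kb of the start (horizontal axis, with the number of genes tested), in wild-type cells and the 2 deletion genotypes. The red bars go from 8.95% with no site to 36.0% with 4 or 5 in wild-type cells, from 14.5% to 43.1% in P1-CTCF-KO and from 7.82% to 28.0% in P2-CTCF-KO.

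Primitive streak and early mesoderm genes fell. Of 25 tested genes with a site, 21 fell and 0 rose, with a median log2 fold change of -5.29 against -0.01 for all genes, and of 8 tested genes of this list without a site 6 fell, with a median of -5.75. The background over all genes tested was 12.5% lower and 10.8% higher. Mixl1, a homeobox gene of the streak, was at 1.02, 6.22 and 1.94 CPM in the 3 mesoderm clones (here and below in the order B9.3, C6.1, C8.1) and had no count in the 4 HPC libraries. The groups did not overlap, and the mesoderm mean was at least 7.65-fold above the 3-count floor of the HPC libraries. Its sites lay at -141 and -482.5 bp, with no HPC peak. Eomes, a T-box gene required for mesoderm and endoderm, was at 1.1, 7.69 and 2.26 CPM in the same clones and had no count in HPCs (at least 9.21-fold). Wnt3, the ligand that starts the streak, had 3 sites upstream of its start and was at 1.18, 6.22 and 4.36 CPM in mesoderm and without a count in HPCs (at least 9.8-fold).

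Rspo3, a secreted amplifier of Wnt signals, was at 9.17, 15.2 and 14 CPM in mesoderm and 0.463, 0.172, 0 and 0.224 CPM in the HPC libraries (in the order B9.3, B9.3-2, C6.1, C8.1). It fell by 5.80 on the log2 scale (SE 0.44, adjusted p 1.5e-05). Id3, an inhibitor of helix-loop-helix factors and a BMP target, was at 2.98, 3.11 and 2.66 CPM in mesoderm and was detected in 1 HPC library, at 0.133 CPM, with a log2 fold change of -6.32 (SE 0.64, adjusted p 4.5e-05). Pdgfra, the PDGF receptor of paraxial and lateral mesoderm, was at 7.45, 11.8 and 7.91 CPM and then at 0.694 CPM in 1 HPC library and 0 in the other 3. Cdx2, Hand1, Msx1, Msx2, Foxf1, Evx1, Snai1, Axin2, Lef1, Bmp2, Bmp4, Wnt5b, Id1, Foxh1 and Tdgf1 were the other called genes of this list.

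The cardiac and paraxial list had few expressed members, 6 of 16, of which Gata4 and Gata6 fell and Tnnt2 rose. Gata4, a GATA factor of heart and endoderm, was at 3.21, 10.8 and 11.6 CPM in mesoderm and 1.16, 0, 0.266 and 0 CPM in the HPC libraries (log2 fold change -4.45, SE 0.73, adjusted p 0.001). Gata6 was at 7.13, 5.08 and 5.25 CPM in mesoderm, and in HPCs library B9.3, at 1.62 CPM, was above the other 3. Gata4 and Gata6 were also the 2 called genes of the endoderm list. Tnnt2, cardiac troponin T, was low throughout, at 0.392, 0 and 0.242 CPM in mesoderm and 1.74, 0.862, 0.399 and 1.01 CPM in HPCs, where the groups were apart by little (log2 fold change 2.01, SE 0.67, adjusted p 0.042, 0.025 to 0.27 over 14 alternatives). Its call was lost in 6 of them.

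Endothelial and hemogenic endothelial genes with a site fell in 11 of 20 cases and rose in 1, but this count depended on single libraries. It was 6 of 20 without HPC library C6.1. Without mesoderm clone B9.3, in which Cdh5 was at 37.1 CPM against 0.491 and 3.47 CPM in the other clones, 5 of 19 fell and 2 rose. With all libraries, 3 of 12 tested genes of this list without a site fell and 3 rose. The background over all genes tested was 12.5% lower and 10.8% higher. Kdr, encoding Flk1 itself, was at 51.1, 36.2 and 22.7 CPM in mesoderm and 15, 6.72, 3.72 and 9.98 CPM in HPCs, so that the groups did not overlap (log2 fold change -2.04, SE 0.39, adjusted p 0.0027). Mesoderm was sorted on Flk1, so the direction of Kdr is a check of the sort and no separate result. Aplnr was at 14, 6.22 and 4.2 CPM in mesoderm and at most 0.231 CPM in HPCs (log2 fold change -6.34, SE 0.72, adjusted p 0.00013). Notch1, the receptor required for definitive blood stem cells, went from 27.7, 8.19 and 11.1 CPM to between 0.93 and 2.78 CPM. Cdh5, VE-cadherin, overlapped between the groups (0.897 to 3.28 CPM in HPCs), and without mesoderm clone B9.3 its log2 fold change was -0.54 and it was no longer called. Leaving out any HPC library other than B9.3-2 also ended its call. Tal1, a helix-loop-helix factor of blood and endothelium, was the exception, at 3.37, 4.26 and 3.55 CPM in mesoderm and 13.1 to 15.9 CPM in HPCs (log2 fold change 1.94, SE 0.21, adjusted p 6e-05).

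Blood genes went the other way although their starts also carried a mesoderm-only site. Of 14 tested blood genes with a site 13 rose and 0 fell, with a median log2 fold change of 3.48, and of 21 without a site 17 rose and 0 fell, with a median of 6.15. The background over all genes tested was 10.8% higher and 12.5% lower. Runx1 had 1 site, at -2335 bp from the annotated start, and an HPC peak within 5 kb. It was at 5.41, 17 and 20.8 CPM in mesoderm and 125, 101, 117 and 182 CPM in HPCs (log2 fold change 3.19, SE 0.43, adjusted p 0.00026). Itga2b was at 1.41, 0.655 and 1.61 CPM and then at 55.1, 27.2, 25 and 45.6 CPM, with sites 2631 and 3615.5 bp inside the gene. HPCs were sorted on CD41, its protein, so the direction of Itga2b is likewise a check of the sort. Gfi1b, a repressor that acts downstream of Runx1, was at 0, 0.655 and 0.323 CPM and then at 6.51 to 11.8 CPM, and Hbb-bh1, an embryonic globin, at 0.392, 0 and 0 CPM and then at 30.1 to 65.6 CPM. Gp1ba, a platelet receptor subunit, had no count in mesoderm and was at 9.72, 4.48, 4.65 and 8.97 CPM in the HPC libraries, which is at least 21.5-fold above the floor. Zfpm1, Ikzf1, Car2, Meis1, Laptm5, Epor, Coro1a and Vav1 were the others that rose.

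**Figure D3:**
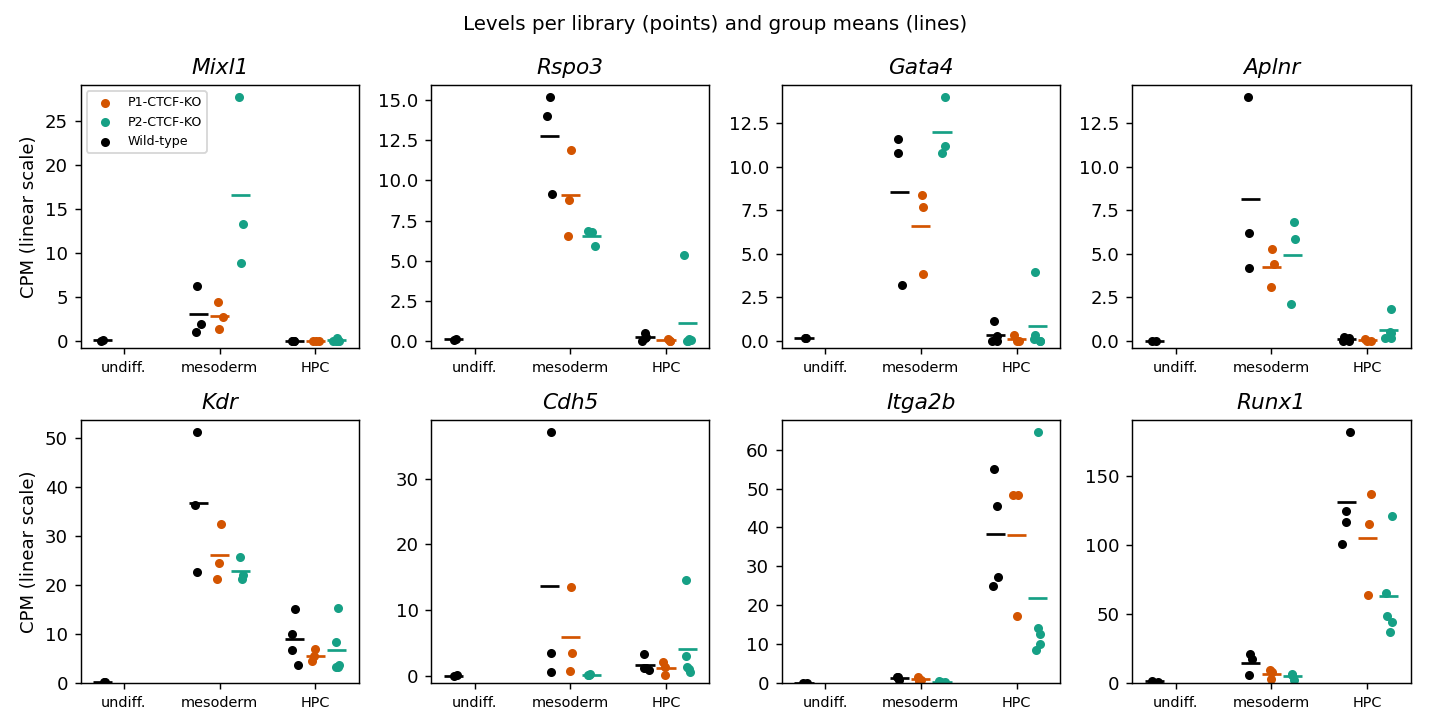
CPM (vertical axis, linear) in undifferentiated cells, mesoderm and HPCs for 8 genes with a site, with 1 point per library, a line at each group mean, and colours for wild-type (black), P1-CTCF-KO (orange) and P2-CTCF-KO (green). Mixl1, Rspo3, Gata4, Aplnr and Kdr are highest in mesoderm, Itga2b and Runx1 in HPCs, and the Cdh5 level of 37.1 CPM in wild-type mesoderm comes from 1 library.

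Signalling genes with a site mostly fell. Of 28 tested BMP, Nodal and TGF-beta genes 18 fell and 1 rose, of 28 Wnt genes 20 fell and 0 rose, and of 20 FGF and VEGF genes 11 fell and 0 rose. The medians were -2.03, -3.11 and -2.21 on the log2 scale. Over all genes tested, 12.5% were lower and 10.8% higher. Of the tested genes of these lists without a site, 4 of 13, 2 of 10 and 3 of 7 fell and 0 rose. Their medians were -1.96, -0.93 and -1.35. Among receptors, Fzd7 was at 3.53, 12.9 and 6.46 CPM in mesoderm and 0.133 to 0.69 CPM in HPCs, Lrp5 at 17.4, 11 and 16.7 CPM and then 1.06 to 2.8 CPM, and Fgfr1 at 12.2, 15.2 and 20.6 CPM and then 0.399 to 3.93 CPM. Each of these groups was apart without overlap. Among ligands, Bmp7 was at 1.65, 4.26 and 4.68 CPM and was then detected in 1 HPC library at 0.231 CPM. Among feedback genes and targets, Smad6, an inhibitor of BMP signals with 4 sites, was at 9.33, 22.8 and 34 CPM and then 3.81 to 7.24 CPM (log2 fold change -2.07, SE 0.38, adjusted p 0.0018), and Etv5, an ETS factor induced by FGF, fell by 3.76 on the log2 scale (SE 0.47, adjusted p 0.00017). Tgfb1, made by megakaryocytes and other blood cells, was the member that rose, from 2.98, 3.93 and 2.83 CPM to between 15.4 and 28.1 CPM.

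Of 39 adhesion and matrix genes with a site 19 fell and 4 rose, and of 6 tested without a site 2 fell and 0 rose. For this and the next lists the background was 12.5% lower and 10.8% higher over all genes tested. Fbn2, the fibrillin of embryonic microfibrils, had 4 sites and was at 50.2, 24.6 and 42.5 CPM in mesoderm and 0.224 to 3.47 CPM in HPCs (log2 fold change -4.98, SE 0.60, adjusted p 0.00013). Vcan, the proteoglycan versican, had 3 sites and was at 67.7, 30.3 and 43.2 CPM and then 0.345 to 5.9 CPM. Thbs1, thrombospondin 1 of platelet granules, rose from 0.164 to 0.549 CPM to between 78.8 and 341 CPM, and Zeb2, Timp3 and Itga4 also rose. Of 16 tested pluripotency genes without a site 2 fell and 0 rose. Of 12 with a site 5 fell and 0 rose, and 3 fell without mesoderm clone B9.3. The smallest adjusted p was that of Sall4, a zinc-finger factor at 14.1, 46 and 29.1 CPM in mesoderm and 0.133 to 0.517 CPM in HPCs (log2 fold change -6.64, SE 0.48, adjusted p 1.5e-05). Among Hox and TALE genes with a site Meis1 rose and Hoxd4 fell, and of 5 neural genes Zic2 and Nes fell, with 1 call left without mesoderm clone B9.3 or HPC library C6.1 or C8.1. The call of Hoxd4 was lost without HPC library C6.1 or mesoderm clone C8.1.

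**Figure D4:**
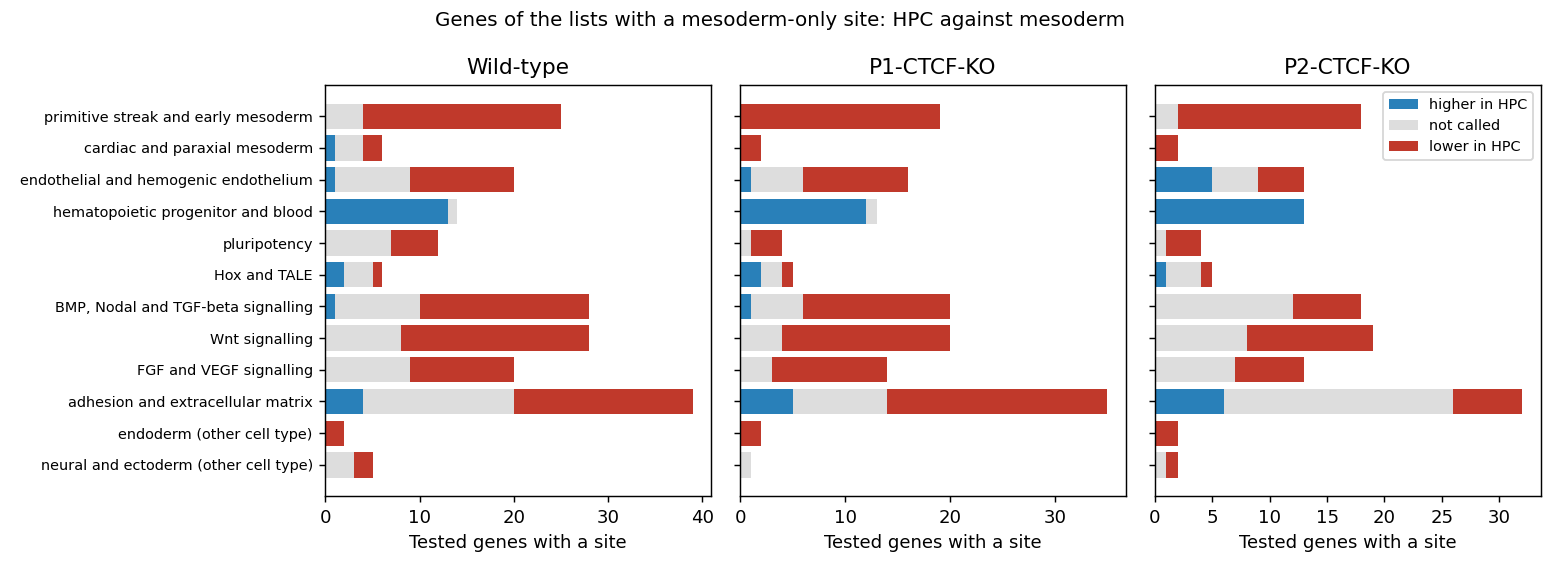
Number of tested genes with a mesoderm-only site (horizontal axis) in each of 12 gene lists (vertical axis) that were higher (blue), lower (red) or not called (grey) in HPCs against mesoderm, for wild-type cells and the 2 deletion genotypes. Streak genes were lower in 21 of 25 wild-type tests and blood genes higher in 13 of 14, and each panel has its own scale. Over all genes tested in wild-type cells, 12.5% were lower and 10.8% higher.

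Over all genes with a site, those with the smallest adjusted p among the falling ones were Sall4, Rspo3, Nectin1, Prtg, Amot, Greb1l, Tmeff1 and Lef1. Amot, the angiomotin that binds YAP, was at 41.6, 62.7 and 66.4 CPM in mesoderm and 4.93 to 8.56 CPM in HPCs, and Prtg, protogenin of the early embryo, at 33.6, 110 and 97.6 CPM and then 2.76 to 3.7 CPM. The rising ones included Tspan32, Smox, Pip5k1b, Uba7, Dapp1, Ache and Mbp. Tspan32, a tetraspanin of blood cells, was at 0.157, 0.164 and 0.404 CPM and then 16.4 to 23.8 CPM (log2 fold change 6.28, SE 0.35, adjusted p 2.9e-06). Smox, spermine oxidase, had 3 sites and no HPC peak and still rose, from at most 0.549 CPM to between 17 and 24.3 CPM.

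Against undifferentiated mESCs, 815 of the 6412 tested genes with a site were higher in mesoderm (12.7%) and 862 lower (13.4%), beside 10.7% and 13.7% of all genes. The undifferentiated arm is 1 culture, so its 2 technical replicates carry no spread between cultures and the p-values here are too small. Leaving out technical replicate 1 or 2 left 611 or 586 calls of 1677. This comparison also sets 2 RNA preparations side by side, and DESeq2 gave 844 higher (13.7%) and 573 lower (9.31%), beside 11.7% and 9.83% of all genes. The share higher in mesoderm went from 8.48% of genes with no site to 11.1%, 14.5% and 20.3% with 1, 2 and 3 sites and 26.7% with 4 or 5. Streak genes with a site were higher in 17 of 25 tests and lower in 3, endothelial genes higher in 16 of 20 and lower in 0, and pluripotency genes lower in 7 of 12 and higher in 0. Without technical replicate 1 endothelial genes were higher in 5 of 22 tests and streak genes in 11 of 25, without technical replicate 2 endothelial genes in 6 of 22. Without mesoderm clone B9.3 endothelial genes were higher in 9 of 19, and without clone C8.1 streak genes in 9 of 18. Amot (log2 fold change 4.90), Rspo3 (7.16), Tal1 (4.47) and Kdm6b, a histone H3K27 demethylase (3.40), were among the higher genes with the smallest adjusted p, each 1.8e-05 in edgeR's test. Lncenc1, Slc27a2, Phc1 and Zfp980 led the lower ones. The comparison shares its mesoderm libraries with the step to HPCs, so the 2 are given side by side only: Rspo3 was at 0.0885 and 0.0797 CPM in undifferentiated cells, Kdr at 0.125 and 0.146 CPM, and Aplnr had no count.

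The step to HPCs was measured again in both sets of CTCF-site deletions, whose libraries are separate from the wild-type ones. In P1-CTCF-KO cells 886 of 4011 tested genes with a site were lower in HPCs (22.1%) and 710 higher (17.7%), beside 18.1% and 17.5% of all genes. In P2-CTCF-KO cells 484 of 3957 were lower (12.2%) and 605 higher (15.3%), beside 10% and 14.5%. The balance for P2-CTCF-KO turned with the fit, to 923 lower and 833 higher with all 23 libraries in 1 fit and 742 lower and 703 higher with no filter on low counts. Among the genes with a site tested in both, 631 were lower in wild-type and P1-CTCF-KO cells, which is 88.6% of the wild-type calls and 71.3% of the P1-CTCF-KO calls. For P2-CTCF-KO it was 350, or 54.0% and 72.9%. The same shares over all tested genes were not computed, so these values do not set genes with a site apart from other genes. Genes with a site and no HPC peak were lower in 29.4% of P1-CTCF-KO and 16.6% of P2-CTCF-KO tests, and those with both in 17.7% and 9.69%. Genes with neither were lower in 23.3% and 12.4%, and those with an HPC peak alone in 13.1% and 7.11%.

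Streak genes with a site fell in 19 of 19 P1-CTCF-KO and 16 of 18 P2-CTCF-KO tests. Blood genes with a site rose in 12 of 13 and 13 of 13. Without a site, streak genes fell in 2 of 2 and 4 of 4 tests. Blood genes without one rose in 12 of 15 and 14 of 15. Over all genes tested, 18.1% were lower and 17.5% higher in P1-CTCF-KO, and 10% and 14.5% in P2-CTCF-KO. Of 35 adhesion and matrix genes with a site tested in P1-CTCF-KO 21 fell and 5 rose. Of 32 tested in P2-CTCF-KO 6 fell and 6 rose, with a median log2 fold change of -0.01. Without a site, 2 of 4 fell in P1-CTCF-KO and 0 of 3 in P2-CTCF-KO, and 0 rose. Endothelial genes with a site fell in 10 and rose in 1 of 16 P1-CTCF-KO tests, and fell in 4 and rose in 5 of 13 P2-CTCF-KO tests. Those without a site fell in 1 and rose in 4 of 7 P1-CTCF-KO tests. In P2-CTCF-KO they fell in 0 and rose in 5 of 6. Without P2-CTCF-KO HPC library D2.1, 7 of 14 endothelial genes with a site fell and 5 rose. Leaving out 1 P2-CTCF-KO mesoderm clone left 2 or 3 endothelial genes with a site that rose. In P2-CTCF-KO HPCs library D2.1 was above the other 4 for many mesodermal and matrix genes. Fbn2 was at 9.54 CPM in it and 0.347 to 2.13 CPM in the others, Rspo3 at 5.38 CPM against at most 0.0868 CPM, and Cdh5 at 14.6 CPM against at most 2.95 CPM. Without that library 660 genes with a site were lower and 693 higher, and 17 of 31 adhesion and matrix genes fell and 6 rose. Leaving out any other library of the P2-CTCF-KO step left 2 or 3 adhesion and matrix genes that fell. Leaving out P2-CTCF-KO mesoderm clone E9.1 gave 260 lower and 337 higher, and leaving out mesoderm clone D10.1 gave 282 lower and 426 higher.

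Of the genes with a site, 3 were lower in wild-type HPCs and higher in P2-CTCF-KO HPCs than in mesoderm, and they are named after their values were seen: Cdh5 (log2 fold changes -3.18 and 4.88), Igf1 (-2.52 and 3.79) and Arhgap31 (-2.94 and 3.77). The test of the difference between the steps did not pass for any of them (adjusted p 0.29 for each in edgeR's test).

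Between genotypes few genes with a site were called by edgeR, and for P2-CTCF-KO the number depended on the tool and the setting. In mesoderm no gene was called between P1-CTCF-KO and wild-type cells by edgeR or by DESeq2 (background 0.0% of 8778 genes), with 87 of 4461 genes with a site (1.95%) at an unadjusted p under 0.05, beside 1.91% of all genes. When P2-CTCF-KO mesoderm was set against wild-type, 2 genes with a site were called, 0.0342% of all genes being the background, and 780 (17.5%) were at an unadjusted p under 0.05, beside 16% of all genes. Ikzf2, the transcription factor Helios, was at 5.96, 4.58 and 7.75 CPM in wild-type and 0.844, 0.713 and 0.444 CPM in P2-CTCF-KO mesoderm (log2 fold change -2.52, SE 0.31, adjusted p 0.026). Prkar2b, a regulatory subunit of protein kinase A, was at 7.29, 4.09 and 7.75 CPM and 0.663, 0.634 and 1.14 CPM (log2 fold change -2.30, SE 0.31, adjusted p 0.037). Both calls were lost on leaving out wild-type clone C8.1 or any of the 3 P2-CTCF-KO clones, while 112 genes with a site (2.51%) were called by DESeq2, beside 1.87% of all genes.

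The size of the step to HPCs differed from wild-type for no gene in P1-CTCF-KO cells by either tool (background 0.0%, with 158 of 4586 genes with a site, or 3.45%, at an unadjusted p under 0.05, beside 3.34% of all genes). In P2-CTCF-KO cells it differed for 1 gene with a site by edgeR, against a background of 0.0218%, and for 21 (0.459%) by DESeq2, beside 0.404% of all genes. At an unadjusted p under 0.05 it was 358 (7.81%), beside 7.01% of all genes. That gene was Ikzf2, which was at 14.8 to 22.3 CPM in wild-type and 7.2 to 14.1 CPM in P2-CTCF-KO HPCs, a step larger by 2.54 on the log2 scale in P2-CTCF-KO (SE 0.38, adjusted p 0.0079). The call was lost without wild-type mesoderm clone C8.1 or P2-CTCF-KO mesoderm clone D2.1 or E9.1.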

How the data were processed

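Peak lists and gene counts were used as deposited, on mouse build mm9. Per the labels and the methods, the authors aligned RNA-seq reads with STAR and counted reads over exons and introns with featureCounts, giving raw counts per gene; the strand setting and annotation are not given in the sources used here. The authors called ATAC-seq peaks with MACS2 on merged libraries, and 416B CTCF peaks on merged replicates. Only peak positions were used.

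Overlap meant 1 shared bp. Gene starts came from the 24961 count-table entries with 1 locus of at most 2.5 Mb. All 76766 peaks lay inside the chromosomes of the NCBIM37 reference, and 18364 of 19942 shared gene names had a start within 1 kb of its GENCODE annotation. Sequences were read from that reference. Counts of the 23 RNA libraries were filtered (minimum count 10), TMM-normalized and tested with edgeR 4.0.16 (quasi-likelihood, Benjamini-Hochberg) in R 4.3.3, with 1 fit per genotype across its stages, 1 for mesoderm of all genotypes and 1 for the differences between steps; DESeq2 1.42.0 was an alternative. The code was tested on simulated data.

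Libraries of 1 clone at both stages share a cell line by their labels, which pairs them; the correlation of same-clone deviations ran from -0.036 to 0.104 over 9 pairs. The fit without the clone block is the main one, as the study's methods name no block. Replicate pairs differed by more than sampling noise, so none was merged. P-values measure the spread between these libraries, some of which share a clone. For 1 gene, 3 mesoderm against 4 HPC libraries allow a smallest two-sided exact permutation p of 0.0571. Intervals and floors cover counting error only.

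The members, the 12 gene lists, the motifs and the tests were chosen with earlier results of these data known. Genes were named by rule: list genes with a site called in the wild-type step, the 8 highest-ranked in each direction of that step and 4 of the step from undifferentiated cells, the genes with the most sites (10 tied at 5), Kdr, Itga2b and Runx1 as checks, and up to 5 per genotype comparison, 145 in all. Values are printed for a selection of them. Some of the genes named by the rule are not reported here.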

Additional observations from a re-analysis of the deposited data

Results flagged for a closer look

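In 36 genes with printed values, the groups of 4 or 5 libraries with unequal values (69 groups) were searched for a library far from the others, and 29 were found, where chance gives about 1 in 20. That rate is for independent groups. These groups share their libraries and many values are near 0, so the count is a description and no test. In a group where all other libraries are at 0, any value stands out.

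Most were P2-CTCF-KO HPC library D2.1, at 0.878 CPM for Wnt3, 0.936 for Eomes, 0.351 for Mixl1, 5.38 for Rspo3, 4.92 for Lef1, 0.41 for Id3, 3.98 for Gata4, 1.81 for Aplnr, 7.43 for Notch1, 14.6 for Cdh5, 3.16 for Sall4, 9.54 for Fbn2, 8.02 for Vcan, 0.117 for Bmp7, 0.819 for Fzd7, 5.5 for Lrp5, 2.11 for Etv5 and 10.5 for Prtg, in each case the highest of its group. Library D10.1 of the same group was the highest for Itga2b (64.5 CPM), Thbs1 (215) and Tgfb1 (21.4). In wild-type HPCs library B9.3 was the highest for Pdgfra (0.694 CPM), Gata6 (1.62), Fbn2 (3.47), Vcan (5.9) and Bmp7 (0.231), library B9.3-2 for Cdh5 (3.28), and library C6.1 for Lef1 (0.266) and Id3 (0.133).

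The step to HPCs of Ikzf2 was larger by 2.54 on the log2 scale in P2-CTCF-KO than in wild-type cells, by the test of the difference itself (edgeR, adjusted p 0.0079, 0.078 at most over its alternatives).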

How the results depend on the processing

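Of 426 calls of named genes, recomputed 5370 times, 5045 stayed, 325 lost the threshold and 0 reversed; causes were not tested. With peaks above the median width 4983 sites were left, and 992 genes at such sites were called in the wild-type step (345 higher, 647 lower), an alternative chosen after seeing the data. In 200-bp windows the shares were 49.1% for the CpG ratio, 8.56% for GATA, 12.2% for ETS, 41.1% for SP/KLF and 7.36% for T-box. Within 2 kb they were 55.8%, 4.29%, 10.06%, 31.4% and 3.97%, with a median GC of 62.8%. Leaving out 1 library at a time gave 1365 to 1837 calls for the wild-type step, 586 to 1512 against undifferentiated cells (611 and 586 without technical replicate 1 or 2), 1398 to 1711 for P1-CTCF-KO, and 597 to 1353 for P2-CTCF-KO (708 and 597 without mesoderm D10.1 or E9.1). All 23 libraries in 1 fit gave 1756 for P2-CTCF-KO (833 higher, 923 lower), and no filter gave 703 higher and 742 lower. That fit moved the median of all genes by -0.11 in P1-CTCF-KO. Between P2-CTCF-KO and wild-type in mesoderm, 268 genes with a site were called without a filter, 112 by DESeq2, 9 with all libraries and 0 to 84 on leaving out 1 library (84 without C6.1, 5 without B9.3). For the difference between the P2-CTCF-KO and wild-type steps it was 2 without a filter, 21 by DESeq2 and 0 to 3 on leaving out 1 library. For P1-CTCF-KO both stayed at 0. With the clone as a block, for the pairing by clone, 1731 genes were called in wild-type, 1603 in P1-CTCF-KO and 935 in P2-CTCF-KO, and no count moved by over 1.5 times. Depth outside ribosomal RNA limits low genes, many of which were not tested.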
